A study of Mus musculus with 4 samples.

Results

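Transcripts of 30 genes of peroxisome biogenesis and metabolism were followed by RNA-Seq in brown preadipocytes with and without MLL4. They are 13 peroxins and 17 enzymes and transporters, matched by gene symbol or synonym among 22463 gene symbols, with each gene represented by its transcript with most reads. Of the 30, 28 were expressed, meaning an RPKM (reads per kilobase of exon, scaled to the mapped reads of the library) over 1 at day 0 or day 2 in cells infected with Ad-GFP, as were 11541 genes in all. *Ehhadh* and *Abcd2* did not pass. The cells were mouse (C57BL/6J) brown preadipocytes from E18.5 embryos, immortalized with SV40T. All of them lacked MLL3 (MLL3-/-) and started with a floxed *Mll4* gene (MLL4flox/flox). Ad-GFP cells, the wild-type arm of the labels, received an adenovirus with GFP and stayed MLL3-/-, while Ad-Cre cells received adenoviral Cre and are labelled MLL3-/-;MLL4-/-. They are called control cells and KO cells below, after the MLL4 KO of the labels. Day 0 was 2 days after confluence, and day 2 followed culture with an adipogenic cocktail of insulin, T3, indomethacin, dexamethasone and IBMX. Each of the 4 conditions has 1 library, and the sources name a single immortalized cell population, so no comparison below has a replicate check or a test. The 95% intervals printed here cover counting error in the reads only and compare libraries, not conditions.

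Peroxisomes are single-membrane organelles that shorten very long and branched fatty acids by β-oxidation, carry out α-oxidation, start the synthesis of ether lipids and break down hydrogen peroxide. They have no DNA, and peroxins, the products of *Pex* genes, insert their membrane proteins, import their matrix enzymes from the cytosol and divide the organelle. In fat cells peroxisomes become more abundant as the cells differentiate, and many peroxisomal enzyme genes elsewhere in the body are targets of the PPAR family of nuclear receptors. MLL4 is a histone methyltransferase of enhancers, and the study asked which genes need it during adipogenesis.

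The sequence upstream of the RefSeq start is printed for members with such a sequence, picked by their ratio of KO to control at day 2. These are *Pex11a*, *Pex13*, *Cat* and *Gnpat*, all over 2.5-fold lower in KO cells, and *Pex6*, the peroxin with the highest ratio. After division by a trend with length and GC content, described further on, *Pex13* and *Gnpat* were less than 2.5-fold lower. The log2 ratio of *Pex6* was then -0.12. Capitals mark matches, on either strand, to the PPAR-type direct repeat DR1 (2 copies of AGGTCA with 1 base between them, up to 2 differences), to CCAAT and to GGGCGG. Each stretch holds the 250 bases before the start in GRCm38.p6, read 5′ to 3′ on the gene's strand.
Pex11a (chr7:79743132-79743381, minus strand): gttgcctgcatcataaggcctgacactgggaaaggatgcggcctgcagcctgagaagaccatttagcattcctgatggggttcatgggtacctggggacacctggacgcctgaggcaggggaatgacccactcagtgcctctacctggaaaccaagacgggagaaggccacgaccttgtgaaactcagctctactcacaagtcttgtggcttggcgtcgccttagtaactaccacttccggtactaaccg
Pex13 (chr11:23665884-23666133, minus strand): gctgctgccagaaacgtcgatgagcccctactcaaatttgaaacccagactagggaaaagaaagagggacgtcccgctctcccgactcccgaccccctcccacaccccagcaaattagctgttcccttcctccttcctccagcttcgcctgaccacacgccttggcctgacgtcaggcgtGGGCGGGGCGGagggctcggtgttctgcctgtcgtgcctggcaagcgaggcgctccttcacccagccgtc
Cat (chr2:103485154-103485403, minus strand): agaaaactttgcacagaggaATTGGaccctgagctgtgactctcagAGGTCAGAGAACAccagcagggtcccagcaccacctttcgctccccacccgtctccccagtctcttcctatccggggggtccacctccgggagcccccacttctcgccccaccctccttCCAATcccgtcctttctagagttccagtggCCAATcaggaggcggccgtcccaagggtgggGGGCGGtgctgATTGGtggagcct
Gnpat (chr8:124862783-124863032, plus strand): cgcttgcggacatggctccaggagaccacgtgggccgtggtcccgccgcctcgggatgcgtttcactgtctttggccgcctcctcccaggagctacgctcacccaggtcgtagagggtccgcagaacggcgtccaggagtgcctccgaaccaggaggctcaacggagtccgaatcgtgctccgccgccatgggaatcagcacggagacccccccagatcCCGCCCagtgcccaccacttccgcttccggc
Pex6 (chr17:46711226-46711475, plus strand): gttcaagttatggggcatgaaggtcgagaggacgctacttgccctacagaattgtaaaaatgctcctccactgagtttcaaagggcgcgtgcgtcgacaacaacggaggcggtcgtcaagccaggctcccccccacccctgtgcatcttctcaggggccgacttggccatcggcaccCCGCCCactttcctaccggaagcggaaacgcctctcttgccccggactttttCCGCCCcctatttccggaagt

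In the 300-base window around the start, of which the last 50 bases are not printed, 23 of the 30 members had a RefSeq sequence. *Pex2*, *Pex19*, *Hsd17b4*, *Abcd2*, *Abcd4*, *Amacr* and *Crat* had none. The DR1 repeat matched in 1 of the 23 (4.35%), *Cat*, with AGGTCAGAGAACA starting at -204 from the start, against 4.4% of 27025 genes with a window. CCAAT occurred in 10 of 23 (43.5%) against 41.1% of genes. The *Cat* window holds 4 copies, at -230, -85, -55 and -13, and the *Acaa1a* window also 4, at -199, -122, -107 and 3. GGGCGG occurred in 19 of 23 members (82.6%) against 38.2% of genes. The *Pex13* window holds copies at -70 and -65 that share 1 base, and *Pex6* copies at -73 and -21. *Gnpat* has 1 copy at -31, *Cat* 1 at -24 and *Pex11a*, in the part not printed, 1 at 44. The motifs were searched separately, so matches of different motifs may share bases, and a match describes letters, not binding. The shares of genes are over all 27025 with a window, whether expressed here or not, unlike the shares given for ratios below.

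Reads on the whole *Mll4* transcript (*Kmt2d* in current nomenclature) numbered 6304 and 8530 in control cells at day 0 and day 2, and 6316 and 5595 in KO cells. The log2 ratio of KO to control was -0.18 (95% interval -0.23 to -0.13) at day 0 and -0.26 (-0.31 to -0.21) at day 2. A count over all exons does not check the loss of the deleted ones, so libraries are named by their labels. Deposited counts summed to between 15831915 and 22099995 per library over 29082 transcripts. Summed RPKM of the 6 fat cell markers, all with reads in every library, was 30.4 in control and 15.7 in KO cells at day 0, and 1999 and 490.4 at day 2. The 4 brown fat markers summed to 10.3 and 18.3 RPKM in control cells at the 2 days, and to 5.49 and 11.8 in KO cells. Of them, *Cidea* had no read and *Ucp1* at most 1 in each library, *Prdm16* had 82 and 424 reads in control and 116 and 105 in KO cells, and *Ebf2* 724 and 1610 against 404 and 866. The 4 mesenchymal precursor markers summed to 599 and 139 RPKM in control cells and to 325.6 and 126 in KO cells. At day 0, *Dlk1* was 13.9-fold, *Pdgfra* 7.57-fold and *Thy1* 1.61-fold lower in KO cells, while *Pdgfrb* was 1.37-fold higher. Skeletal muscle, macrophage and endothelium markers had at most 2, 16 and 19 summed reads. Fewer differentiated cells and less RNA per cell cannot be told apart in these libraries, and the part of the fat cell, brown fat and precursor markers in the results below was not tested.

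Peroxin transcripts were higher at day 2 than at day 0 in control cells. All 13 had a log2 ratio of day 2 to day 0 above 0, with 95% intervals clear of 0, though *Pex3* came to -0.062 after division by a trend with length and GC content that is described further on. Of all 11541 expressed genes, 6559 were above 0, and 5349 had the interval above 0. The peroxin median log2 ratio was 1.25, against 0.15 over all expressed genes, and the summed RPKM of the peroxins was 129 at day 0 and 299 at day 2. The 6 peroxins past the 2.5-fold cutoff of the study were *Pex10*, *Pex11a*, *Pex11g*, *Pex13*, *Pex14* and *Pex16*. Together with 4 of 15 expressed enzymes they make 10 of 28 expressed members (35.7%) over 2.5-fold higher, where 8.38% of all expressed genes were. No member was over 2.5-fold lower, where 12.7% of all expressed genes were. *Pex19* at 2.38-fold and *Pex6* at 2.35-fold lie just under the cutoff.

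**Figure D1:**
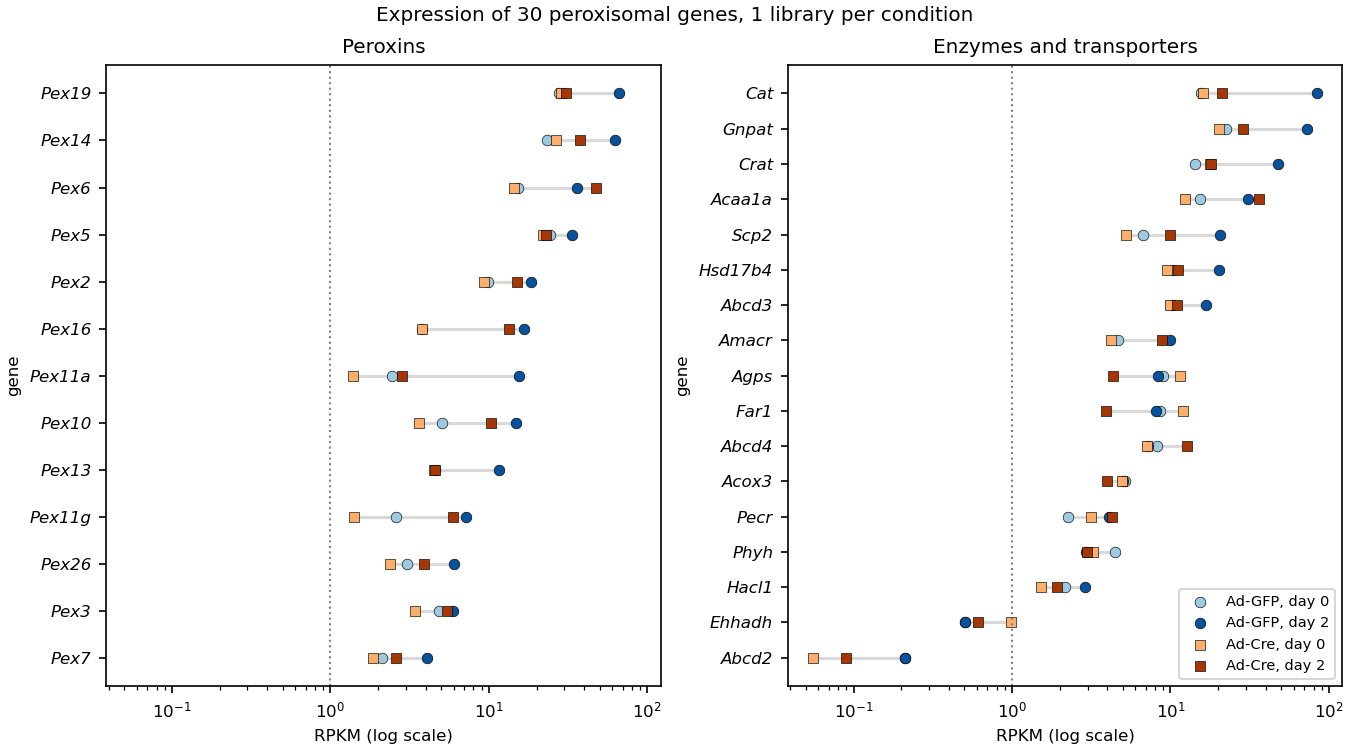
Levels of the 30 genes in RPKM on a log axis, with peroxins on the left and enzymes and transporters on the right, 1 point per library and the dotted line at 1 RPKM. Day 2 Ad-GFP cells (dark blue) hold the highest level of most peroxins and of *Cat* (84.1 RPKM), *Gnpat* (72.8) and *Crat* (47.7), while *Ehhadh* and *Abcd2* stay below 1 in all 4 libraries.

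The peroxins that insert membrane proteins are *Pex19*, a cytosolic carrier of newly made membrane proteins, *Pex3*, its docking site, and *Pex16*, a membrane protein that helps to place *Pex3*. *Pex16* (NM_145122, chr2:92214833-92221374 in NCBI37/mm9, plus strand) had 95 reads in control cells at day 0, 561 at day 2, 108 in KO cells at day 0 and 353 at day 2. Its RPKM was 3.78, 16.7, 3.79 and 13.4 in the same order, so both day 2 libraries were high and the day 0 libraries alike. The log2 ratio of day 2 to day 0 was 2.14 (95% interval 1.83 to 2.47) in control and 1.82 (1.51 to 2.15) in KO cells. *Pex19* reached 27.8 and 66.2 RPKM in control cells at day 0 and day 2, and 28.6 and 30.8 RPKM in KO cells. The day 2 control library alone was high. *Pex3* had 191 and 314 reads in control cells, and 153 and 227 in KO cells. It stayed between 3.4 and 5.93 RPKM. Cut into windows of 50 bases, 17.9% of its transcript also matches other places in the genome, with up to 2 differences allowed.

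The import receptors had smaller ratios. *Pex5*, which carries most matrix enzymes into the organelle, had an RPKM of 24.2 and 33.6 in control cells at day 0 and day 2, and of 21.8 and 22.9 in KO cells. *Pex7*, the receptor of the rarer amino-terminal signal, stayed between 1.87 and 4.09 RPKM. At the docking complex, where loaded receptors reach the membrane, *Pex13* (NM_023651, chr11:23546479-23565959, minus strand) had 323 and 1102 reads at day 0 and day 2 in control cells, and 361 and 339 in KO cells. Its RPKM of 11.6 in day 2 control cells stands apart from 4.49 to 4.56 in the other libraries. Of its windows, 12.2% match elsewhere in the genome.

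The docking partner *Pex14* (NM_019781, chr4:148334644-148473985, minus strand) had 783 and 2803 reads in control cells at day 0 and day 2, and 1006 and 1316 in KO cells. Its RPKM was 23.4 and 62.8 in the first and 26.5 and 37.6 in the second. The day 2 control library was again the highest, and the log2 ratio of day 2 to day 0 was 1.42 (95% interval 1.31 to 1.54) against 0.50 (0.38 to 0.62). Exons of the antisense gene *Gm17029* cover 28.3% of the *Pex14* exons, and since no source names a stranded kit, reads of the pair cannot be told apart.

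*Pex2* and *Pex10* are RING finger ubiquitin ligases that mark *Pex5* for recycling. *Pex10* (NM_001042407, chr4:154441125-154446542, plus strand) had 143 and 558 reads in control cells at day 0 and day 2, and 116 and 307 in KO cells. The day 2 library was higher in both, with a log2 ratio of 1.55 (95% interval 1.28 to 1.82) in control and 1.52 (1.21 to 1.84) in KO cells. *Pex2* had a log2 ratio of 0.91 in control and 0.69 in KO cells. Receptors leave the membrane through the ATPase *Pex6*, which *Pex26* anchors. *Pex6* (NM_145488, chr17:46848412-46862490, plus strand) had 841 and 2647 reads in control cells, and 901 and 2742 in KO cells. Its RPKM was 15.3 and 36.0 in the first, and 14.4 and 47.5 in the second, which made it the most abundant of the 30 in KO cells at day 2. The log2 ratio of day 2 to day 0 was 1.24 (1.12 to 1.35) in control and 1.72 (1.61 to 1.83) in KO cells. *Pex26* stayed between 2.37 and 6.00 RPKM.

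*Pex11a* and *Pex11g* bend and lengthen the membrane before peroxisomes divide. *Pex11a* (NM_011068, chr7:86880843-86888017, minus strand) had 37 and 314 reads in control cells at day 0 and day 2, and 24 and 45 in KO cells. In RPKM these are 2.45, 15.5, 1.40 and 2.84, so the day 2 control library stands above the rest. Its log2 ratio of day 2 to day 0 was 2.67 (95% interval 2.17 to 3.20) in control cells, the highest of the 28 expressed members, and 1.02 (0.28 to 1.80) in KO cells. *Pex11g* (NM_026951, chr8:3457105-3467680, minus strand) had 50 and 187 reads in control cells, and 31 and 120 in KO cells. The log2 ratio was 1.48 (1.03 to 1.965) and 2.07 (1.49 to 2.69), so for this paralog day 2 was high in both cells, with wide intervals on few reads.

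Enzymes and transporters were more mixed. In control cells 10 of 15 expressed members had a higher level at day 2, as had 6559 of all 11541 expressed genes. The median log2 ratio of the 15 was 0.87, and *Cat*, *Crat*, *Gnpat* and *Scp2* were over 2.5-fold higher. *Cat* encodes catalase, the classic peroxisomal marker enzyme, which breaks down hydrogen peroxide. *Cat* (NM_009804, chr2:103294006-103325317, minus strand) had 686 and 4933 reads in control cells at day 0 and day 2, and 800 and 968 in KO cells. Its RPKM of 84.1 at day 2 in control cells was the highest of the 30 genes in any library, against 15.6, 16.1 and 21.0 in the others. The log2 ratio of day 2 to day 0 was 2.43 (95% interval 2.31 to 2.54) in control and 0.39 (0.25 to 0.53) in KO cells. *Crat* encodes carnitine acetyltransferase, which turns acetyl-CoA into acetylcarnitine in peroxisomes and mitochondria. *Crat* (NM_007760, chr2:30255991-30271333, minus strand) had 1072 and 4812 reads in control cells, and 1522 and 1438 in KO cells. Only the day 2 control library was high, with log2 ratios of 1.75 (1.65 to 1.84) and 0.03 (-0.07 to 0.14).

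The 3 enzymes of ether lipid synthesis parted. *Gnpat* and *Agps* catalyse its opening steps inside peroxisomes, and *Far1* supplies the fatty alcohol that *Agps* uses. *Gnpat* (NM_010322, chr8:127386933-127413957, plus strand) had 1155 and 4993 reads in control cells at day 0 and day 2, and 1185 and 1534 in KO cells. The log2 ratio was 1.69 (95% interval 1.60 to 1.79) in control and 0.49 (0.38 to 0.60) in KO cells, and *Gm16163* on the same strand covers 7.81% of its exons. *Agps* (NM_172666, chr2:75670234-75769407, plus strand) had 1135 and 1415 reads in control cells, but 1639 and 574 in KO cells. *Far1* (NM_027379, chr7:120657348-120715025, plus strand) had 577 and 726 in control cells, and 912 and 276 in KO cells. For both, the KO cells held the highest level at day 0 and the lowest at day 2. The log2 ratio of day 2 to day 0 was -0.10 (-0.21 to 0.01) and -1.40 (-1.54 to -1.26) for *Agps*, and -0.09 (-0.25 to 0.07) and -1.61 (-1.81 to -1.41) for *Far1*, in control and KO cells. *Far1* has the lowest GC content of the expressed members (36.9%) and *Agps* the longest transcript (7359 bases), and their ratios after division by a trend with length and GC content are given further on.

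β-Oxidation genes were between these extremes. *Scp2*, which encodes a thiolase for branched chains and a lipid transfer protein, had 307 and 1257 reads in control cells at day 0 and day 2, and 273 and 479 in KO cells. Its log2 ratio was 1.62 (95% interval 1.43 to 1.80) in control and 0.92 (0.71 to 1.14) in KO cells. *Acaa1a*, the straight-chain thiolase, had 467 and 1240 reads in control cells, and 425 and 1145 in KO cells, with log2 ratios of 0.99 (0.84 to 1.15) and 1.54 (1.38 to 1.71). Of their windows 50% and 42% match elsewhere in the genome with up to 2 differences. Part of their reads may therefore not be told apart from those of near-identical copies, and these values are uncertain. *Hsd17b4*, the multifunctional enzyme of branched and very long chains, was at 20.4 RPKM in day 2 control cells and between 9.53 and 11.1 in the rest. *Amacr*, the racemase that readies branched chains, had 206 and 585 reads in control cells, and 211 and 411 in KO cells, with nearly the same log2 ratio, 1.09 and 1.08.

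*Acox3*, the oxidase of branched chains, stayed between 4.0 and 5.14 RPKM. *Pecr*, an enoyl-CoA reductase of chain elongation, had 46 and 112 reads in control cells, and 73 and 91 in KO cells. The α-oxidation enzymes *Phyh* and *Hacl1* remained low, between 1.53 and 4.50 RPKM. *Phyh*, with 114 and 100 reads in control cells and 93 and 79 in KO cells, was the expressed member with the lowest log2 ratio of day 2 to day 0 in control cells, -0.61 (95% interval -1.01 to -0.21). Of the transporters that bring acyl-CoA into peroxisomes, *Abcd3* was at 10.2 and 16.8 RPKM in control cells and at 9.94 and 11.0 in KO cells. *Abcd4*, now placed in lysosomal vitamin B12 export rather than in peroxisomes, had 359 and 421 reads in control cells, and 353 and 581 in KO cells. *Ehhadh*, the other multifunctional enzyme, had 26 to 58 reads per library, and *Abcd2* 6 to 27.

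In KO cells the step from day 0 to day 2 was smaller for most members. The median of their log2 ratios of day 2 to day 0 was 0.69 for peroxins and 0.34 for enzymes, against -0.012 over all expressed genes. Over 2.5-fold higher were 5 of 28 expressed members (17.9%), where 8.66% of all expressed genes were, namely *Pex6*, *Pex10*, *Pex11g*, *Pex16* and *Acaa1a*. Over 2.5-fold lower were 2 (7.14%), *Agps* and *Far1*, where 10.0% of all expressed genes were. Scaling by the sums of the deposited counts left *Agps* inside the cutoff, and turned 1000 higher and 1156 lower genes overall into 1320 and 917. After the trend division *Pex6* and *Pex11g* were over 2.5-fold higher, 7.14% of members against 6.39% of all expressed genes. *Pex10*, *Pex16* and *Acaa1a* were then inside the cutoff, and no member was over 2.5-fold lower. The difference between the log2 ratios, KO minus control, had a median of -0.32 over peroxins, -0.57 over enzymes and -0.11 over the 11438 genes that had it. It was below 0 for 22 of 28 members, and for 6184 of those 11438 genes. The 95% interval lay below 0 for 13 members and above 0 for 3. These intervals were not counted over all expressed genes, so no background share stands beside them. After the trend division the difference was below 0 for 20 of 28 members and for 5630 of those genes. The medians were then -0.25 and 0.015.

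The largest shortfalls were those of *Cat* at -2.04 (95% interval -2.22 to -1.86), *Crat* at -1.72 (-1.86 to -1.57) and *Pex11a* at -1.65 (-2.51 to -0.78). *Far1*, *Pex13*, *Agps*, *Gnpat* and *Pex19* followed, between -1.52 and -1.14. The 3 members whose interval lay above 0 were *Abcd4* at 1.02 (0.74 to 1.30), *Acaa1a* at 0.55 (0.33 to 0.78) and *Pex6* at 0.48 (0.33 to 0.64). After the trend division the lowest were *Pex11a* (-1.97), *Cat* (-1.75), *Pex14* (-1.58), *Crat* (-1.52), *Pex16* (-1.31) and *Gnpat* (-0.93). *Far1* was then at -0.50, *Pex13* at -0.38, *Agps* at -0.27 and *Pex19* at -0.66. *Abcd4* was at 0.92, *Pex6* at 0.033 and *Acaa1a*, whose sign turned, at -0.17. Before it, the values of the division peroxins were -1.65 for *Pex11a* and 0.58 (-0.14 to 1.31) for *Pex11g*.

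**Figure D2:**
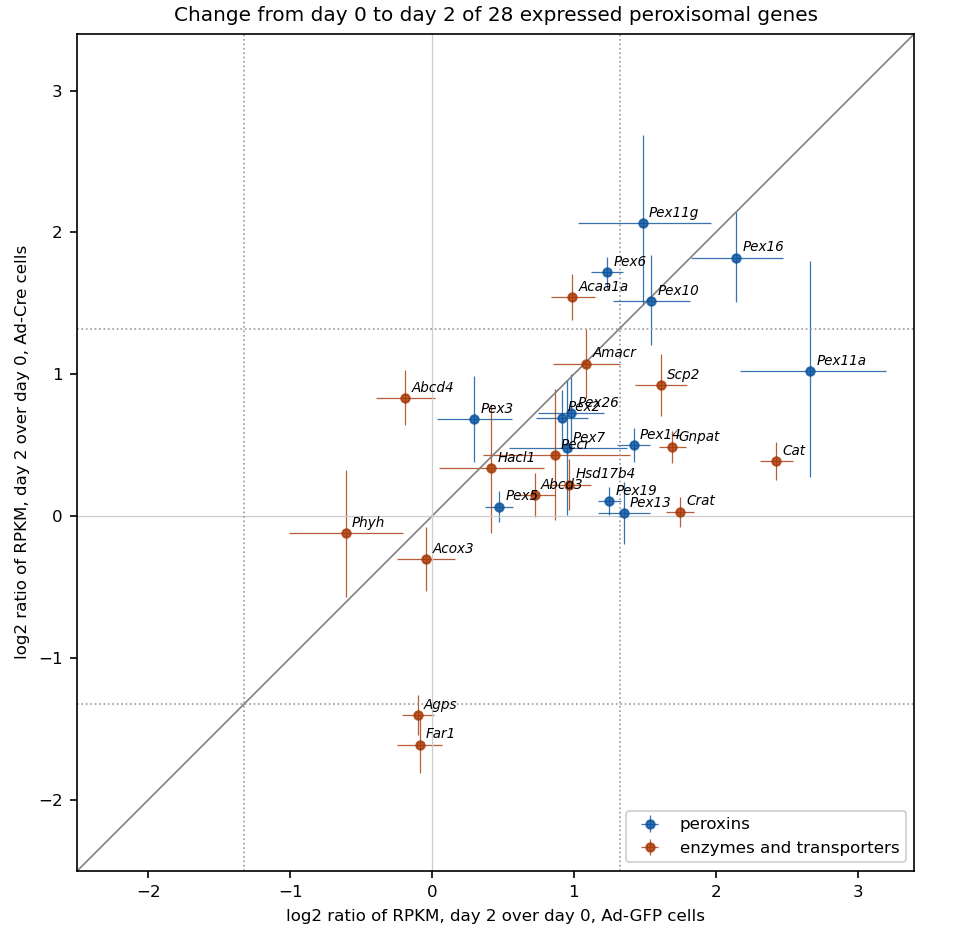
Log2 ratio of RPKM of day 2 to day 0 for the 28 expressed members in Ad-GFP cells (horizontal axis) and Ad-Cre cells (vertical axis). Bars are 95% counting intervals, dotted lines the 2.5-fold cutoff, and the diagonal equal ratios. *Cat*, *Crat*, *Gnpat*, *Pex13* and *Pex11a* lie far below the diagonal, *Pex16*, *Pex10* and *Amacr* near it, and *Abcd4*, *Pex6* and *Acaa1a* above it.

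Before induction no expressed member was past 2.5-fold at day 0 in either direction, where 1.27% of all expressed genes were higher and 4.12% lower in KO cells. The median log2 ratio of KO to control was -0.15 for peroxins and -0.13 for enzymes, against -0.022 over all expressed genes. Values ran from -0.87 (95% interval -1.57 to -0.20) for *Pex11g* to 0.48 for *Far1* and *Pecr*. The interval lay below 0 for 11 members and above 0 for 4, which were *Pex14*, *Agps*, *Far1* and *Crat*. Of all 11541 expressed genes, it lay below 0 for 3309 and above 0 for 3050. Precursor markers, at 325.6 against 599 summed RPKM, differed at the same day, and their part was not tested.

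At day 2, 12 of 13 peroxins and 11 of 15 expressed enzymes and transporters were lower in KO than in control cells. After the trend division 11 and 10 were. Of all 11541 expressed genes, 6586 were lower before the division and 5779 after it. Over 2.5-fold lower were 5 of 28 members (17.9%), where 10.1% of all expressed genes were, and none was over 2.5-fold higher, where 8.14% were. With TMM factors the genes lower and higher overall became 816 and 1213, and the members over 2.5-fold lower were *Pex11a* and *Cat*, 7.14% of members against 7.07% of all expressed genes. The median log2 ratio was -0.555 for peroxins and -0.61 for enzymes, against -0.16 over all expressed genes. This ratio shares the day 2 control library with the ratio of day 2 to day 0 in control cells, so a high count there lowers the KO to control ratio and raises the other. Fat cell markers, at 490.4 against 1999 summed RPKM, moved with it, and their part was not tested.

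*Pex11a* was the lowest, with 45 reads in KO against 314 in control cells, 5.47-fold lower (log2 ratio -2.45, 95% interval -2.94 to -2.00). *Cat*, with 968 against 4933 reads, was 4.0-fold lower (-2.00, -2.10 to -1.90). The intervals of both lie wholly past the cutoff. *Crat* was 2.63-fold lower (-1.39, -1.48 to -1.31), *Gnpat* 2.55-fold (-1.35, -1.44 to -1.27) and *Pex13* 2.55-fold (-1.35, -1.53 to -1.17). Their intervals include ratios inside the cutoff. *Pex19* at 2.15-fold lower, *Far1* and *Scp2* at 2.06-fold lower and *Agps* at 1.93-fold lower came next.

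At the other end *Abcd4* had 581 reads in KO against 421 in control cells, a log2 ratio of 0.81 (95% interval 0.63 to 1.00). *Pex6* was at 0.40 (0.32 to 0.48) and *Acaa1a* at 0.24 (0.12 to 0.35). Closest to no difference were *Phyh* at 0.01 (-0.43 to 0.45), *Pecr* at 0.05 (-0.36 to 0.46), *Pex3* at -0.12 (-0.37 to 0.13) and *Amacr* at -0.16 (-0.34 to 0.03). With TMM factors the sign of *Pex3* and *Amacr* turned. By step of biogenesis, the import receptors summed to 25.5 RPKM in KO against 37.7 in control cells, the docking pair to 42.1 against 74.4 and the division pair to 8.75 against 22.8. The peroxins that insert membrane proteins summed to 49.6 against 88.9 RPKM, and the RING finger pair to 25.4 against 33.3. The receptor export pair, led by *Pex6*, summed to 51.4 against 42.0 RPKM, though *Pex26* alone was at 3.92 against 6.00.

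**Figure D3:**
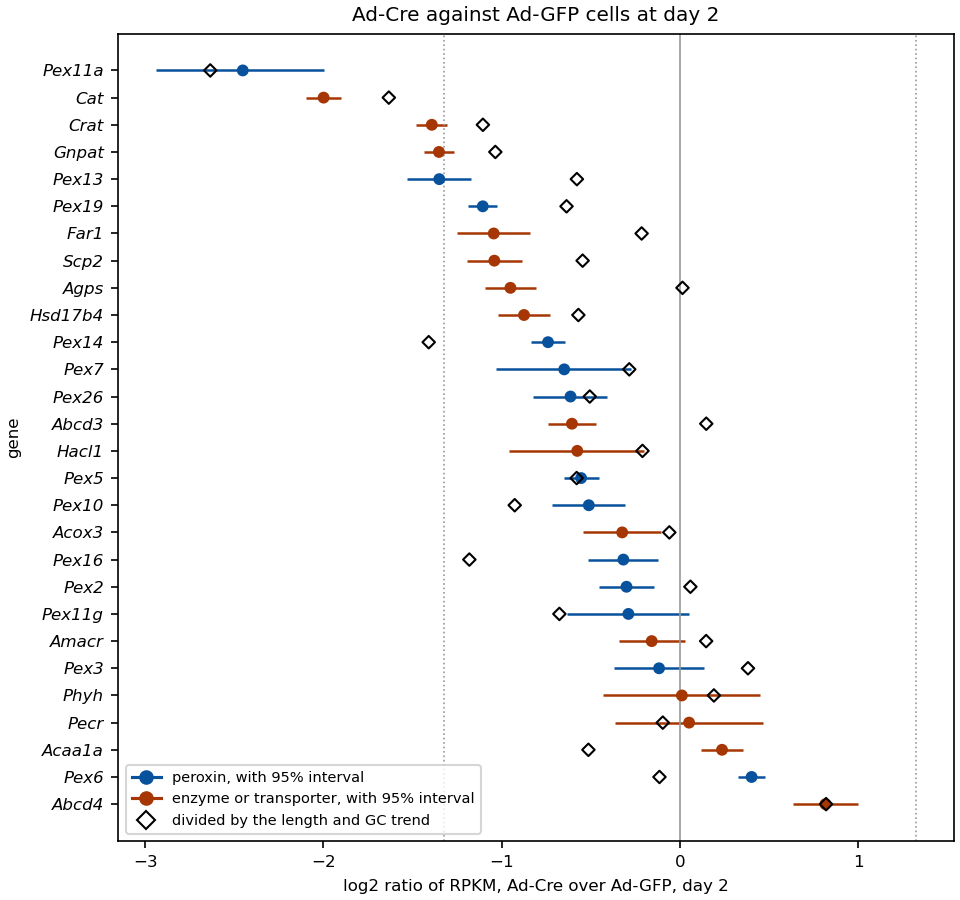
Log2 ratio of RPKM of Ad-Cre to Ad-GFP cells at day 2 for the 28 expressed members, in order, with bars for 95% counting intervals and dotted lines at the 2.5-fold cutoff. Open diamonds give the ratio after division by the trend with length and GC content of transcripts. *Pex11a* and *Cat* stay lowest both ways, while the diamonds of *Agps* and *Abcd3* lie above 0.

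The ratios at day 2 followed transcript length and base composition over all expressed genes. The median log2 ratio of KO to control was 0.35 in the shortest of 4 equal groups of transcripts and -0.63 in the longest. By GC content it was -0.63 in the lowest of 4 groups and 0.43 in the highest. In control cells from day 0 to day 2 the medians of the length groups lay between 0.11 and 0.17, and those of the GC groups ran from 0.31 in the lowest to -0.072 in the highest. In KO cells from day 0 to day 2 they ran from 0.59 in the shortest to -0.48 in the longest, and from -0.39 to 0.39 by GC content. The part of this trend in the results was not tested, but each ratio was also divided by the trend fitted over 10837 genes, an alternative chosen after seeing the data. The peroxin median at day 2 was then -0.58 and that of enzymes -0.21, and the members over 2.5-fold lower were *Pex11a* (-2.63), *Cat* (-1.63) and *Pex14* (-1.41). *Gnpat* (-1.04), *Crat* (-1.11) and *Pex13* (-0.58) were then inside the cutoff. The sign turned for *Pex2*, *Pex3*, *Pex6*, *Abcd3*, *Agps*, *Amacr*, *Acaa1a* and *Pecr*, with *Agps* at 0.01 and *Pex6* at -0.12, and *Pex16* moved from -0.32 to -1.18. The log2 ratio of day 2 to day 0 in KO cells was then -0.63 for *Agps* and -0.97 for *Far1*, and 1.38 for *Pex6* and 1.41 for *Pex11g*. In control cells 10 of 28 members stayed over 2.5-fold higher, with *Pex6* in and *Pex13* out.

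**Figure D4:**
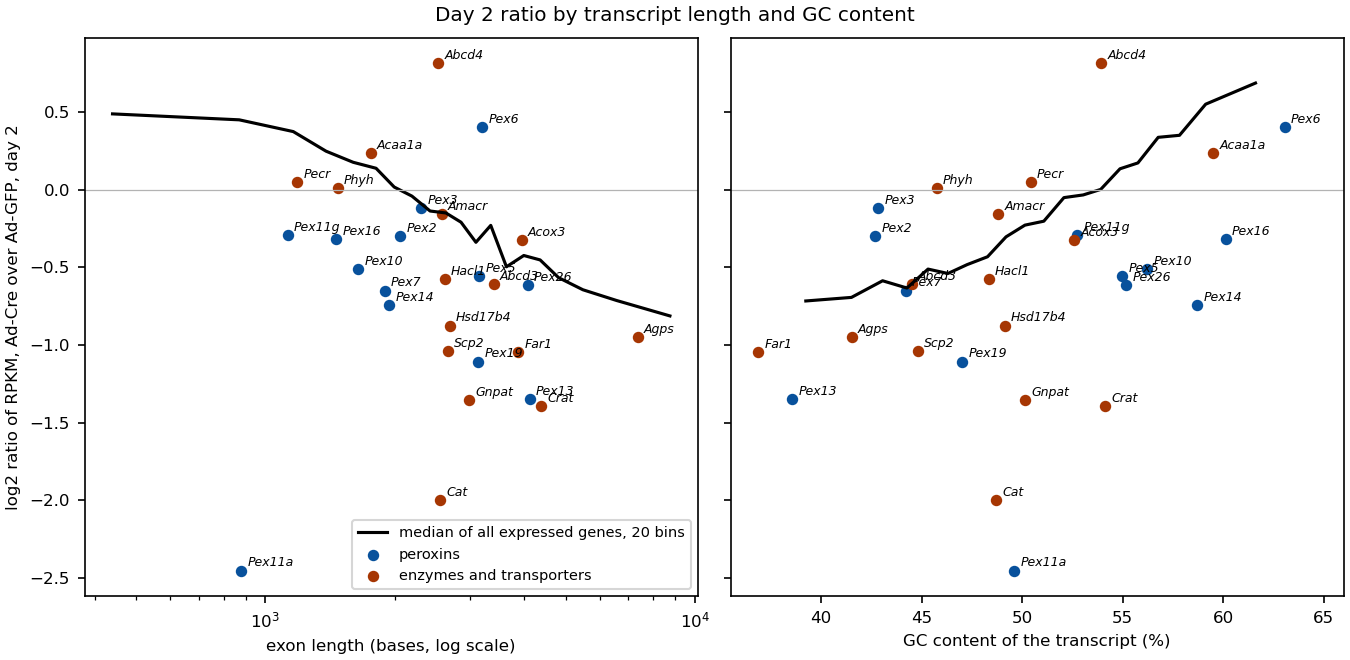
Log2 ratio of RPKM of Ad-Cre to Ad-GFP cells at day 2 against exon length (left, log axis) and GC content (right). Points are the 28 expressed members and the black line is the median of all expressed genes in 20 bins. The line falls with length and climbs with GC content, *Pex11a*, *Cat*, *Gnpat* and *Crat* lie well below it in both panels, and *Agps* lies near it.

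Other genes of the organelle, a list of 59 of which 41 were expressed, were read beside the members. In control cells 12 (29.3%) were over 2.5-fold higher after the 2 days, where 8.38% of all expressed genes were, and none was over 2.5-fold lower, where 12.7% were. In KO cells 7 (17.1%, against 8.66%) were higher and 1 (2.44%, against 10.0%) lower. The median log2 ratios were 0.54 and 0.48. At day 2, 7 (17.1%, against 10.1%) were over 2.5-fold lower and 1 (2.44%, against 8.14%) higher in KO than in control cells, with a median of -0.50. Of the 7, *Xdh*, *Nudt12* and *Ephx2* passed the expression threshold only through the day 2 control library, where they are high, so their lower values in KO cells were favoured by that threshold. *Ephx2*, with 71 against 10 reads, is named after its values were seen. All 28 expressed members also passed at day 0. At day 0, 2 genes of the list (4.88%, against 4.12%) were lower in KO cells. *Acsl1*, which activates long-chain fatty acids on several membranes, had 346 and 31674 reads in control cells, and 461 and 4057 in KO cells.

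Past the cutoff with at least 100 reads were also *Xdh*, xanthine dehydrogenase, with 20 and 650 reads in control and 6 and 62 in KO cells, and *Nudt12*, a nucleotide hydrolase, with 33 and 164 against 43 and 26. At day 2 their log2 ratios of KO to control were -3.04 and -2.31. *Acsl4*, which prefers arachidonate, was at -1.52 on the same scale. *Dhrs4*, a carbonyl and retinal reductase, had the opposite sign at 2.08 (95% interval 1.85 to 2.31). It had 691 reads in KO against 209 in control cells. After the trend division the ratios of *Xdh*, *Nudt12* and *Dhrs4* were -2.67, -1.74 and 1.67. That of *Acsl4* was -0.59, inside the cutoff. *Tysnd1*, the protease that trims imported enzymes, was higher at day 2 than at day 0 in both cells, by 2.08 in control and 1.90 in KO cells on the log2 scale, as was *Mlycd*, malonyl-CoA decarboxylase, by 2.08 and 1.72. After the trend division *Tysnd1* and *Mlycd* were at 2.09 and 2.14 in control cells. In KO cells they were then at 1.31 and 1.06, inside the cutoff. For *Sod2*, *Tmem135*, *Ech1* and *Pxmp2* the log2 ratio of day 2 to day 0 in control cells was 2.20, 1.94, 1.65 and 1.59. Of 16 expressed genes of mitochondrial fatty acid oxidation, 5 (31.2%, against 8.38% of all expressed genes) were over 2.5-fold higher at day 2 in control and 2 (12.5%, against 8.66%) in KO cells. At day 2, 2 (12.5%, against 10.1%) were over 2.5-fold lower in KO than in control cells. Their median log2 ratios in these comparisons were 1.15, 0.66 and -0.70.

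Among nuclear regulators of these pathways, *Pparg*, the master regulator of adipogenesis, had 105 and 1645 reads in control cells at day 0 and day 2, and 36 and 252 in KO cells. Its level was highest in day 2 control cells, and its log2 ratio of KO to control was -1.73 (95% interval -2.31 to -1.17) at day 0 and -2.36 (-2.55 to -2.16) at day 2. *Ppara*, the PPAR of liver fatty acid oxidation, stayed at or below 0.543 RPKM, while *Ppard* lay between 31.1 and 42.1 RPKM in all 4 libraries. The coactivator *Ppargc1b* had 33 and 2287 reads in control cells, and 37 and 494 in KO cells. *Ppargc1a* had 4 and 9 reads in control and 0 in both KO libraries, where a count of 0 allows up to 3 reads, so no fold is given.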

How the data were processed

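RNA-Seq was analysed from 4 libraries of immortalized mouse brown preadipocytes (Ad-GFP and Ad-Cre, day 0 and day 2), grouped by sample title, with 1 library each. Reads of 50 bases were processed by the authors with the Illumina Analysis Pipeline, aligned to NCBI37/mm9 and assigned to RefSeq exons. They deposited read counts per transcript as whole numbers without normalization, and the authors' RPKM, which scales the count by exon length and mapped reads. The handling of reads with several matches and the strand of the libraries are not given in the sources used here. The submitters' processing notes also list bedtools 2.16 and SICER 1.1, with no role.

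Symbols came from a RefSeq table (97.8% of 29082 transcripts matched) and, per gene, the transcript with most reads was kept. Coordinates, exon overlaps and GC content came from GENCODE on NCBI37/mm9, for all 30 members, by symbol or synonym. Promoter windows came from RefSeq, GRCm38.p6. The CCAAT and GGGCGG motifs were added after seeing the data. Protein sequences were not analysed here. Transcript windows of 50 bases were searched against the genome by blastn 2.17.0. Of the macrophage markers, *Cd68* was not found by symbol.

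The expression threshold (RPKM over 1 at either day in Ad-GFP cells) and the 2.5-fold cutoff follow the study's methods. Ratios are of RPKM without a pseudocount, and their exact binomial 95% intervals (scipy 1.17.1) cover counting error alone. The interval of a difference of log2 ratios combines the counting errors of 4 counts. A deposited count of 15831915 to 22099995 reads per library sets the precision. TMM factors were computed with edgeR 4.0.16 (R 4.3.3), without an edgeR test. The trend over exon length and GC content was fitted as medians of 20 bins in 5 rounds. The remaining steps ran in Python 3.11.15 with pandas 2.3.3, numpy 2.4.6 and, for plots, matplotlib 3.10.9. The procedure was tested on simulated data. There were 12 alternative settings planned and 2 added after seeing the data.

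All members are accounted for. Reads in all libraries are given for those past 2.5-fold in any ratio with at least 100 reads in the higher library and for those closest to no difference at day 2. Other peroxisomal genes past the cutoff with at least 100 reads are named, at most 12 by size. A gene that this rule names is not reported here. The members, lists and rules were chosen with earlier results of these data known.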

Additional observations from a re-analysis of the deposited data

Results flagged for a closer look

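The KO to control log2 ratio had opposite signs at day 0 and day 2, with both 95% counting intervals clear of 0, for 5 of the members. The same count was not made over all expressed genes, so no background stands beside these 5. Of all 11541 expressed genes, the interval lay below 0 for 3309 and above 0 for 3050 at day 0. At day 2 it did for 5402 and 3826. It was 0.18 at day 0 and -0.74 at day 2 for *Pex14*, 0.35 and -0.95 for *Agps*, and 0.48 and -1.05 for *Far1*. It was 0.32 and -1.39 for *Crat*, and -0.32 and 0.24 for *Acaa1a*. With 1 library per condition the difference between the days was not tested for any of them. Divided by the trend over length and GC content, the day 2 value was -1.41 for *Pex14*, -1.11 for *Crat*, -0.22 for *Far1*, 0.01 for *Agps* and -0.51 for *Acaa1a*, so the opposite signs were lost for *Agps* and *Acaa1a*.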

How the results depend on the processing

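No paired analysis was possible because each condition has 1 library, and for the same reason no library could be left out within a condition. The signs of the peroxin and enzyme medians were the same under all scalings, filters, the pseudocount and the trend division, but counts past the cutoff were not. Members over 2.5-fold lower in KO than control cells at day 2 (5) became 2 with TMM factors, 2 with sums of deposited counts, 2 after centring on all expressed genes, 2 where the interval bound had to pass, 8 with a cutoff of 2-fold, 1 with 4-fold and 3 after the trend division. The 2 members are 7.14% of those expressed, beside 7.07% of all genes with TMM factors, 7.87% with sums, 7.34% centred and 5.89% by the interval bound, so under the scalings the share is at the background. The 3 are 10.7% beside 5.99%, the 8 at 2-fold 28.6% beside 17.9%, and the 1 at 4-fold 3.57% beside 3.1%. Members higher at day 2 than day 0 in control cells (10) became 6 by the interval bound and 3 at 4-fold. These are 21.4% beside 5.32% and 10.7% beside 3.71% of all genes. In KO cells the 5 higher became 1 at 4-fold and 2 after the trend division. These are 3.57% beside 3.64% and 7.14% beside 6.39% of all genes, both near the background. The 2 lower became 1 (3.57%) with sums of counts, a pseudocount of 1 RPKM or the interval bound, beside 7.95%, 5.78% and 6.6% of all genes. They became 0 at 4-fold and after the trend division, at 2.5-fold or 2-fold, beside 4.37%, 9.25% and 13.6%. Without a filter, *Abcd2* made 1 member lower at day 0, on 6 and 20 reads, 3.33% of members beside 10.2% of all genes. The enzyme median at day 2 (-0.61) was -0.42 with TMM factors, -0.44 centred and -0.21 after the trend division. That of day 2 over day 0 in control cells (0.87) was 0.67 with the pseudocount and 0.69 after the trend division. Apart from the construction of stricter and looser cutoffs, the cause was not tested. TMM factors moved the median of all expressed genes from -0.163 to 0.0206 at day 2 and from 0.147 to 0.0467 in control cells, and sums of counts moved it from -0.0121 to 0.167 in KO cells. Of the expressed members, depth limits *Pex11a*, *Pex11g*, *Pex7*, *Phyh*, *Pecr* and *Hacl1* most, with under 100 reads in at least 2 libraries each.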
